A study of Homo sapiens with 21 samples.

Results

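The 7 receptor tyrosine phosphatase genes *PTPRM*, *PTPRK*, *PTPRG*, *PTPRF*, *PTPRJ*, *PTPRE* and *PTPRA* were described through the RNA sites crosslinked to HNRNPK in a breast cancer cell line. A cluster, meaning a stretch of overlapping reads with crosslink-induced T-to-C changes, belonged to the set when the gene name given to it by the authors was one of the 7. This rule found 2705 of 778762 clusters over 4 libraries, or 0.347%, and 7 of the 18322 gene names with a cluster. *PTPRM* alone held 952 of these clusters (35.2%) and ranked 7 among all gene names by number of clusters.

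HNRNPK-bound RNA was mapped by 4-thiouridine (4SU) PAR-CLIP, in which cells incorporate 4SU into their RNA, ultraviolet light crosslinks it to bound protein, and the crosslinked base is then read as C in place of T. MDA-MB-231 is a cell line from a triple-negative breast tumour, and it was used either parental or with CRISPR-Cas9 knockout (KO) of *KRT19*, the gene of the intermediate filament protein keratin 19. Cells of both genotypes received 4SU and ultraviolet light, were split into cytoplasm and nucleus, and the RNA was trimmed with RNase T1 before immunoprecipitation with an antibody against HNRNPK and its isoform HNRNPJ. Each of the 4 conditions (parental cytoplasm, parental nucleus, *KRT19* KO cytoplasm and *KRT19* KO nucleus) was 1 library, so no difference below has a replicate check, no p-value was computed, and all intervals are 95% intervals that cover counting error only. The clone history of the KO line was not given in the sources used here, and the 17 RNA-seq samples were not analysed here.

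Reads in clusters numbered from 3252800 to 6216226 per library, and the median cluster had 10 or 11 reads. The *KRT19* KO cytoplasmic library stood apart by its unique reads, 45.6% of reads against 19.0 to 30.9% in the other three, and by its intronic share, 23.0% of reads against 42.3% in the parental cytoplasm and 59.7 and 67.0% in the nuclei. *KRT19* itself had 1 cluster of 7 reads in the parental cytoplasm, 1 of 5 reads in the *KRT19* KO cytoplasm and none in the nuclei, which is too few reads to check the genotype. Because a cluster needs RNA as well as protein, fewer transcripts, fewer unspliced transcripts and less binding per transcript cannot be told apart in these bulk libraries.

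Receptor-type protein tyrosine phosphatases span the plasma membrane and remove phosphate from tyrosines, opposing tyrosine kinases at cell contacts and growth factor receptors. *PTPRM* and *PTPRK* bind the same protein on neighbouring cells and act on cadherin and catenin complexes, *PTPRG* and *PTPRF* bind ligands such as contactins or heparan sulfate proteoglycans, *PTPRJ* dephosphorylates growth factor receptors, and *PTPRE* and *PTPRA* have short extracellular parts, with *PTPRA* known as an activator of SRC. HNRNPK is an RNA-binding protein with KH domains that prefers C-rich single-stranded RNA and moves between nucleus and cytoplasm.

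The sites that the results below turn on are shown 5′ to 3′ on the RNA strand, with T for U, in lower case with the letters [T/A][T/C/A]CCC (the consensus searched for here) in capitals. The first 4 are intronic sites found in all 4 libraries, each with the highest summed read share of its gene among such sites, and are shown because they recurred most strongly.
PTPRM intron 2, chr18:7784461-7784490, plus strand: aactccttttATCCCaccacctTACCCacc
PTPRK intron 3, chr6:128630464-128630493, minus strand: catttaTACCCtaactttcacTTCCCactc
PTPRG intron 2, chr3:61781737-61781765, plus strand: aaaTTCCCtttaataatcATCCCattaaa
PTPRA intron 2, chr20:2924305-2924334, plus strand: ctccttaaaccattattaatctccaaataa
The next 5 are the deepest exonic sites of their class, 3 in the 3'UTRs of *PTPRJ* and *PTPRG*, 1 in the coding sequence of *PTPRJ* and 1 in the 5'UTR of *PTPRG*, and are shown to set exonic against intronic sequence.
PTPRJ 3'UTR, chr11:48189209-48189238, plus strand: tttttttttccaaaacaatttcttttttaa
PTPRG 3'UTR, chr3:62280010-62280039, plus strand: taaatctcttaattacatacatttttctac
PTPRG 3'UTR, chr3:62279914-62279943, plus strand: agtcctctaaaaaTTCCCtattactcctat
PTPRJ coding exon 9, chr11:48157774-48157803, plus strand: ccttatataacatcaccatctctccagaag
PTPRG 5'UTR in exon 1, chr3:61547780-61547807, plus strand: tttccggggggcgctcggcggcTTCCCg
Positions are on hg19 (GRCh37), and intron and exon numbers follow the canonical transcript of GENCODE v44 lifted to that build. The sequence of each of the 2705 clusters was equal to GRCh37 at its position, and each of the 9 printed stretches had 1 exact match in the genome. The *PTPRM*, *PTPRK* and *PTPRG* intronic stretches each held the consensus at more than one place. The *PTPRA* intronic stretch, the *PTPRJ* 3'UTR stretch, which is made mostly of T and A, the *PTPRG* 3'UTR stretch at 62280010 and the *PTPRJ* coding stretch did not hold these letters.

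The clusters of these genes lay almost wholly in introns. The intronic share of clusters was 97.1% (95.6 to 98.1%) in the parental cytoplasm, 98.2% (97.0 to 98.9%) in the parental nucleus, 95.9% (93.7 to 97.3%) in the *KRT19* KO cytoplasm and 98.4% (97.1 to 99.2%) in the *KRT19* KO nucleus. Over all clusters with a gene name the share was 74.4, 83.7, 63.4 and 82.1% in the same order, lower in every library. That comparison took no account of gene length. Exons of the canonical transcript came to 3.35 to 9.36 kb per gene, in spans of 98.5 to 840 kb, so introns made up most of the length. Whether the intronic share exceeded that of other genes with as much intron was not tested. Over the 4 libraries intronic clusters were 951 of 952 in *PTPRM*, 544 of 552 in *PTPRK*, 633 of 652 in *PTPRG*, 72 of 75 in *PTPRF*, 194 of 211 in *PTPRJ*, 45 of 55 in *PTPRE* and 199 of 208 in *PTPRA*. *PTPRM* had no UTR cluster in any library, and its only exonic cluster was a coding one of 10 reads in the *KRT19* KO nucleus. Weighted by reads the picture was less uniform, because a few exonic sites were deep: intronic clusters held 92.3% of the reads in the parental cytoplasm and 78.9% in the *KRT19* KO cytoplasm, against 98.6 and 96.8% in the nuclei.

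*PTPRM*, on chromosome 18 from 7566780 to 8406859 with 33 exons, had 279 clusters in the parental cytoplasm, 300 in the parental nucleus, 153 in the *KRT19* KO cytoplasm and 220 in the *KRT19* KO nucleus. As reads per 1000000 reads in clusters (RPM) this was 944, 1599, 397 and 1047, highest in the parental nucleus and lowest in the *KRT19* KO cytoplasm. No single cluster carried the gene, since the deepest held from 2.54 to 3.68% of its reads in a library. *PTPRK*, the closest relative of *PTPRM* in the set, on chromosome 6 from 128289930 to 128841761 on the minus strand, had 185, 146, 117 and 104 clusters and 522, 580, 264 and 439 RPM in the same order. Unlike *PTPRM*, it had more clusters in each cytoplasm than in the nucleus of the same cells, although its RPM was higher in the nuclei.

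*PTPRG*, on chromosome 3 from 61547243 to 62283284, had 176, 200, 120 and 156 clusters and 478, 873, 270 and 690 RPM in the order parental cytoplasm, parental nucleus, *KRT19* KO cytoplasm and *KRT19* KO nucleus. Its order of libraries was that of *PTPRM*. *PTPRF*, also known as LAR, on chromosome 1 from 43990858 to 44089337, had 10, 26, 8 and 31 clusters and 20.5, 82.8, 18.8 and 140.5 RPM. The intervals of its cytoplasmic libraries overlapped (16.9 to 24.7 and 15.6 to 22.6 RPM), and its RPM was 1.70 times as high in the *KRT19* KO nucleus as in the parental nucleus.

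*PTPRJ*, on chromosome 11 from 48001977 to 48192391, had 40, 60, 39 and 72 clusters and 195, 339, 281 and 391 RPM in that order. It was the only gene of the 7 with a higher RPM in the *KRT19* KO than in the parental cytoplasm. *PTPRE*, on chromosome 10 from 129705367 to 129884119, had 17, 16, 9 and 13 clusters and 41.2, 65.6, 8.53 and 40.3 RPM, with the parental cytoplasm (36.1 to 47.0) and the *KRT19* KO nucleus (33.7 to 47.8) indistinguishable by counting error. *PTPRA*, on chromosome 20 from 2854066 to 3019722, had 46, 78, 41 and 43 clusters and 131, 395, 81.2 and 245 RPM. *PTPRE* and *PTPRA* thus had their lowest RPM in the *KRT19* KO cytoplasm and their highest in the parental nucleus, as did *PTPRM*, *PTPRK* and *PTPRG*.

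**Figure D1:**
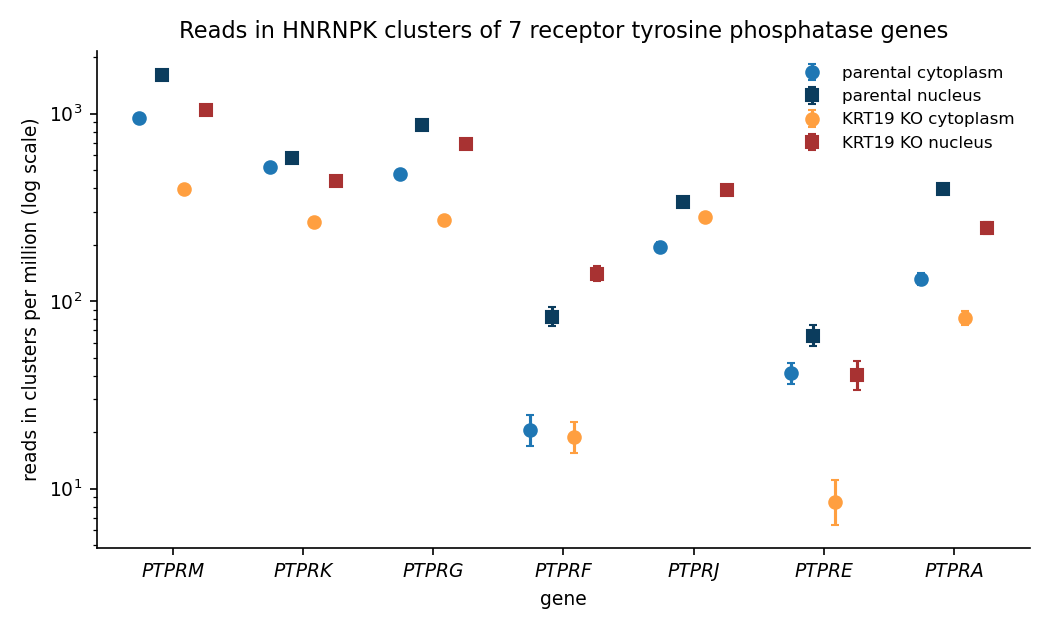
Reads in clusters per 1000000 reads in clusters (vertical axis, log scale) of the 7 genes in the 4 libraries, with bars for the 95% counting interval. All genes but *PTPRJ* have their lowest point in the *KRT19* KO cytoplasm, for *PTPRF* within the interval of the parental cytoplasm, while *PTPRJ* is higher there (281) than in the parental cytoplasm (195).

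Per length of gene, the density of clusters summed over libraries was 113 per 100 kb in *PTPRM*, 100 in *PTPRK*, 88.6 in *PTPRG*, 76.2 in *PTPRF*, 111 in *PTPRJ*, 30.8 in *PTPRE* and 126 in *PTPRA*. The median of 3066 protein-coding genes of at least 100 kb with a cluster was 31.5 per 100 kb. *PTPRE*, with the fewest clusters, was thus near the median of long genes, while *PTPRA*, *PTPRM* and *PTPRJ* were at percentiles 90.8, 88.0 and 87.2. These percentiles took no account of transcript abundance, and the 7 genes were chosen with earlier results of these data known. They are therefore a description only. The rank of *PTPRM* by number of clusters came with the greatest length of the 7 genes, 840 kb, and its density lay between those of *PTPRJ* and *PTPRA*.

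Within the genes, clusters were denser toward the 5′ end in several of the 7. In *PTPRM*, intron 1 made up 24.7% of the intron length of the canonical transcript and held 369 clusters, 38.8% of those in its introns. In *PTPRG*, introns 1 and 2 made up 25.7 and 33.1% of the length and held 37.8 and 39.7% of the clusters. Intron 1 of *PTPRJ* made up 70.7% of the length and held 87.9% of the clusters, and intron 1 of *PTPRE* held 66.7% in 43.2% of the length. Intron 1 also held more than its share of length in *PTPRK* (26.7% of clusters in 22.5% of the length) and *PTPRA* (37.7% in 30.6%), and *PTPRF* went the other way with 4.17% in 8.35%.

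This 5′ weighting was measured in each library of *PTPRM*, where the first 25% of the gene held 38.7, 39.7, 37.3 and 40.5% of the clusters in the parental cytoplasm, parental nucleus, *KRT19* KO cytoplasm and *KRT19* KO nucleus. The third 25% held 24.0, 23.3, 32.7 and 19.5% in the same order, so it came close to the first in the *KRT19* KO cytoplasm. Over all libraries the first 25% held 39.2% in *PTPRM*, 38.2% in *PTPRE*, 37.1% in *PTPRG*, 35.1% in *PTPRA*, 29.9% in *PTPRK*, 28.0% in *PTPRJ* and 9.33% in *PTPRF*. Across 1653 protein-coding genes of at least 100 kb with at least 50 clusters the median was 23.8%, with quartiles at 16.9 and 31.4%. *PTPRM*, *PTPRE*, *PTPRG* and *PTPRA* therefore lay above the upper quartile of long genes, *PTPRK* and *PTPRJ* lay between the quartiles, and *PTPRF* is shorter than the genes of this class.

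**Figure D2:**
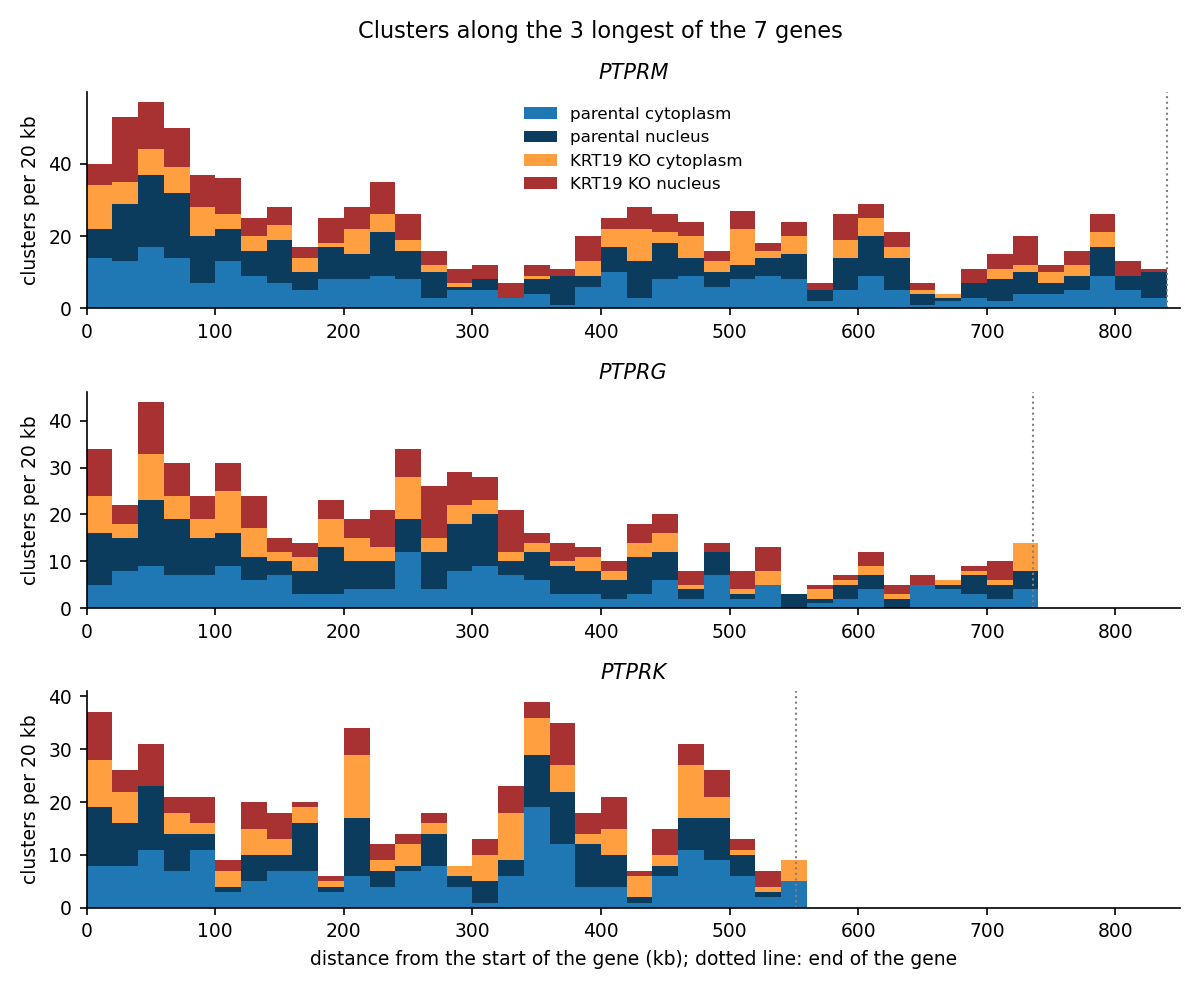
Number of clusters in windows of 20 kb (vertical axis) by distance from the start of the gene in kb for *PTPRM*, *PTPRG* and *PTPRK*, stacked by library, with a dotted line at the end of the gene. With the libraries stacked, the tallest windows of *PTPRM* and *PTPRG* lie in the first part of the gene. Those of *PTPRK* are spread along it. In the *KRT19* KO cytoplasm, *PTPRM* also has tall windows in a later part of the gene.

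Long introns held most of the sites. When clusters of the 4 libraries were merged wherever they shared at least 1 nt of a strand, the 7 genes had 1972 sites, of which 1926 were intronic. Of the 190 introns of the canonical transcripts, 103 held a site, and the 16 longer than 50 kb held 72.6% of the sites in 65.7% of the length. The number of sites per intron followed its length with a Spearman rank correlation of 0.841 over the 190 introns, which share 7 genes and the same libraries, and this is given as a description only. Clusters were not concentrated at exon edges: 10 of 2633 intronic clusters (0.380%, 0.206 to 0.698%) lay within 100 nt upstream of an exon, where 0.763% of the sequence lies, and 11 (0.418%, 0.233 to 0.747%) within 100 nt downstream, where 0.760% lies. The named intronic sites of *PTPRM*, *PTPRK*, *PTPRG* and *PTPRA* were 10.2, 12.7, 47.1 and 4.31 kb from the nearest exon.

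Most sites were found in 1 library, 74.2% of all sites of the 7 genes. Of the 1926 intronic sites of the 7 genes, 44 (2.28%, 1.71 to 3.05%) were in all 4 libraries, against 1.88% of the 347667 intronic sites outside these genes. *PTPRM* had 22 of its 668 sites in all 4 libraries (3.29%, 2.18 to 4.94%) and *PTPRJ* 8 of 143 (5.59%, 2.86 to 10.7%), while *PTPRK* had 5 of 415, *PTPRG* 8 of 483, *PTPRA* 2 of 153, and *PTPRF* and *PTPRE* had none of 62 and 48. Of the 8 shared *PTPRJ* sites 7 lay in intron 1 and the other was the 3'UTR site shown above. Counted by cluster, the share overlapping a cluster of another library was 45.4% (41.9 to 49.0%) in the parental cytoplasm, 41.4% in the parental nucleus, 58.5% in the *KRT19* KO cytoplasm and 42.7% in the *KRT19* KO nucleus, against 44.7, 39.3, 54.6 and 39.9% for all intronic clusters. The values of the set were close to those of introns in general, and they moved with depth: in the parental nucleus, 23.3% of intronic clusters of the 7 genes under 10 reads were shared and 92.3% of those with 50 reads or more.

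**Figure D3:**
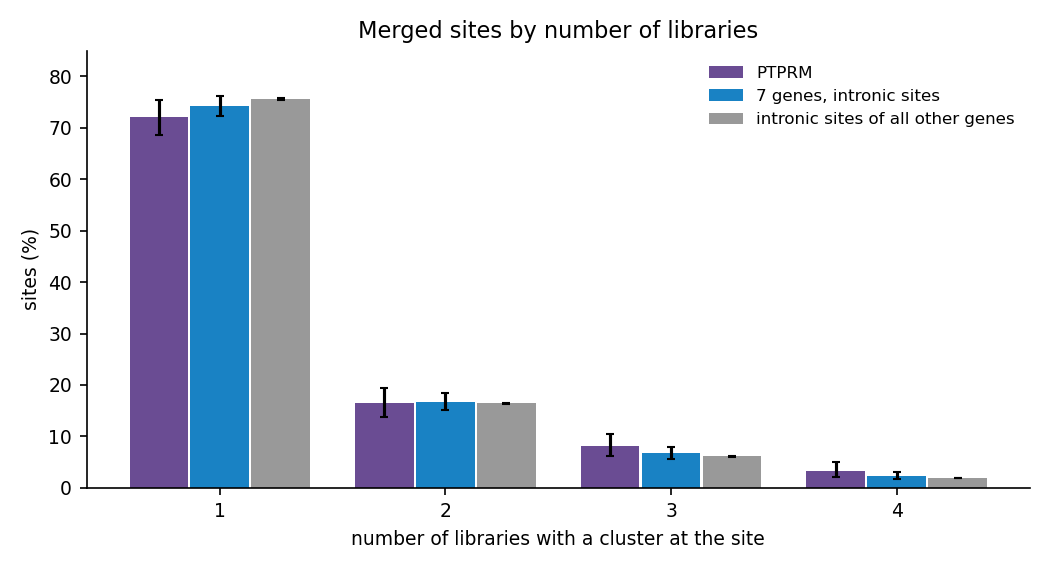
Share of merged sites in percent (vertical axis) by the number of libraries with a cluster there, for *PTPRM*, for the intronic sites of all 7 genes and for intronic sites elsewhere, with 95% Wilson intervals. The bars of the 7 genes and of other introns are near each other, and *PTPRM* is at 3.29% for 4 libraries against 1.88% elsewhere.

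The 4 intronic sites shown above recurred with unequal depth. The *PTPRM* site in intron 2 had 103 reads in the parental cytoplasm, 99 in the parental nucleus, 37 in the *KRT19* KO cytoplasm and 83 in the *KRT19* KO nucleus, and 65.8% (60.5 to 70.8%) of its reads had a T-to-C change. The *PTPRG* site in intron 2 had 124, 61, 41 and 71 reads in that order and the *PTPRK* site in intron 3 had 51, 66, 24 and 45. All 3 were lowest in the *KRT19* KO cytoplasm, as RPM 0.321 (0.214 to 0.471), 0.295 (0.202 to 0.423) and 0.420 (0.247 to 0.695) times the parental cytoplasm for *PTPRM*, *PTPRG* and *PTPRK*. In the nucleus the same ratio was 0.912 (0.673 to 1.23), 1.27 (0.886 to 1.81) and 0.742 (0.496 to 1.10), intervals that include 1. The *PTPRA* site differed, with 50, 53, 15 and 18 reads and a ratio below 1 in both the cytoplasm (0.268, 0.140 to 0.485) and the nucleus (0.369, 0.204 to 0.641). These sites were picked by their RPM summed over the same libraries, which favours a site that is high in 1 of them. Their ratios describe picked sites and are no evidence of a difference. The intronic share of all reads was itself lower in the *KRT19* KO than in the parental cytoplasm, by a log2 ratio of -0.88.

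The consensus letters were more frequent in the clusters than in the genes around them. Of the 2638 intronic clusters of the 7 genes, 859 (32.6%, 30.8 to 34.4%) held [T/A][T/C/A]CCC on the RNA strand, against 9.10% of all windows of 27 nt, the median cluster length, along the same strand of the 7 genes. Among 467008 intronic clusters outside these genes the share was 32.2%, so the set did not stand apart. The genes differed among themselves in both measures: *PTPRK* had the lowest share of clusters (22.2%, 18.9 to 25.9%) and of windows (6.85%), and *PTPRF* the highest of both (51.4%, 40.1 to 62.6%, and 14.1%). *PTPRM* was at 31.1% against 8.89%, *PTPRG* at 35.9% against 9.10%, *PTPRJ* at 35.1% against 9.81%, *PTPRE* at 46.7% against 12.7% and *PTPRA* at 44.7% against 9.95%.

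Bases in the intronic clusters of the set were 34.9% T, 31.7% A, 26.9% C and 6.46% G, while the 7 genes as a whole were 31.1% T, 28.0% A, 19.7% C and 21.2% G. RNase T1 cuts after G, and 47.8% of the clusters ended in G, so that a low G content inside clusters moves with the digestion as well, and its part in the result was not tested. Sites found in more libraries held the consensus more often: 25.4% (23.2 to 27.7%) of intronic sites in 1 library, 37.0% in 2, 39.5% in 3 and 65.9% (51.1 to 78.1%) of the 44 in 4. The deepest cluster of a site had a median of 9, 16, 31 and 39.5 reads in these classes, so depth moved with the number of libraries. Outside these genes the shares were 25.9, 35.7, 44.9 and 54.8%.

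**Figure D4:**
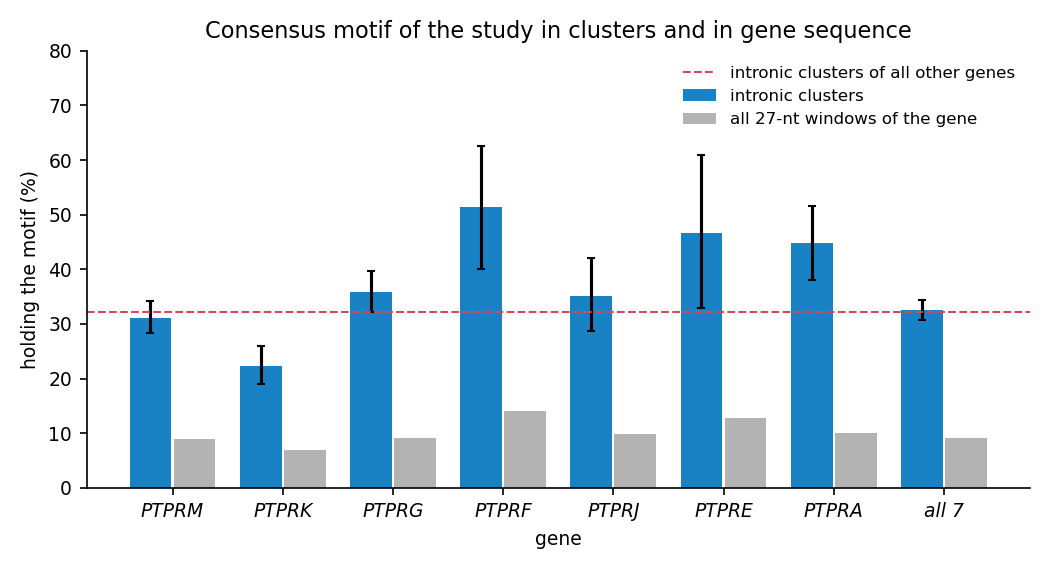
Share of intronic clusters (blue, with 95% Wilson intervals) and of all windows of 27 nt of the gene (grey) that hold the consensus, in percent, for each gene and the 7 together; the dashed line is the share among intronic clusters of all other genes, 32.2%. Each blue bar exceeds its grey bar, and *PTPRK* is lowest in both.

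Exonic sites were few and differed from gene to gene. The 7 genes had 31 merged sites in 3'UTRs, 8 in *PTPRE*, 7 in *PTPRG*, 6 in *PTPRA*, 5 each in *PTPRJ* and *PTPRK*, and none in *PTPRM* and *PTPRF*. Together they carried 170 RPM in the parental cytoplasm and 261 in the *KRT19* KO cytoplasm, against 26.6 and 67.3 in the nuclei, so 3'UTR reads were higher in each cytoplasm while intronic reads were lower there. The *PTPRJ* site beginning at 48189209 alone gave 87.7 and 180 of the cytoplasmic RPM, and 7.35 and 6.46 of the nuclear RPM. *PTPRE* alone went the other way in *KRT19* KO cells, with 0.804 RPM in the cytoplasm and 10.1 in the nucleus. Of the 31 sites, 21 (67.7%, 50.1 to 81.4%) had a cluster in a cytoplasmic library and none in a nuclear one, close to the 70.1% of 45229 other 3'UTR sites. As a share of clusters, 3'UTRs held 2.12 and 3.29% in the parental and *KRT19* KO cytoplasm and 0.847 and 0.939% in the nuclei. Over all clusters with a gene name the shares were 13.0 and 20.4% in the cytoplasm and 4.80 and 5.37% in the nuclei, so the difference between fractions was not particular to the 7 genes.

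The *PTPRJ* 3'UTR site in exon 25, the last exon, had 487 reads in the parental cytoplasm, 26 in the parental nucleus, 1116 in the *KRT19* KO cytoplasm and 21 in the *KRT19* KO nucleus. In RPM the cytoplasmic libraries exceeded the nuclear ones by 11.9-fold (8.05 to 18.5) in parental cells and by 27.8-fold (18.1 to 45.1) without *KRT19*, and the *KRT19* KO cytoplasm exceeded the parental one by 2.05-fold (1.84 to 2.28). This site held 45.1% and 64.0% of the reads of *PTPRJ* in the parental and *KRT19* KO cytoplasm. Its T-to-C share was 33.5% (31.2 to 35.8%), lower than at the intronic *PTPRM* site. A different stretch of the same 3'UTR, chr11:48189639-48189665, had clusters only in the nuclei, with 18 reads in parental and 150 in *KRT19* KO cells.

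In the last exon of *PTPRG*, the 3'UTR site beginning at 62280010 had 179 reads in the parental cytoplasm and 188 in the *KRT19* KO cytoplasm, which in RPM was a ratio of 0.938 (0.760 to 1.16), and no cluster was listed in either nucleus. Just upstream, the site beginning at 62279911 had 16, 16, 159 and 0 reads, and its ratio between *KRT19* KO and parental cytoplasm was 8.87 (5.30 to 15.9). The counting intervals of these neighbouring sites of one 3'UTR do not overlap, but each condition was 1 library. The exonic sites were also picked by their reads summed over the libraries, which favours a site that is high in 1 of them. Of the 191 reads at 62279911, 159 came from the *KRT19* KO cytoplasm, so its ratio is a description of a picked site and no evidence of a difference. The coding site of *PTPRJ* in exon 9, picked in the same way, had 6, 0, 66 and 58 reads, mostly in *KRT19* KO cells, and was among 12 coding sites of the set. The single 5'UTR site, in *PTPRG*, had at most 14 reads in a library and was G-rich, unlike the intronic sites.

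The comparison of genotypes asks how binding to these transcripts differed where keratin 19 was absent. Summed over the 7 genes, RPM was 2332 in the parental cytoplasm and 1320 in the *KRT19* KO cytoplasm, a log2 ratio of -0.82 (-0.86 to -0.78). In the nuclei it was 3935 and 2993, a log2 ratio of -0.39 (-0.43 to -0.36). The median over all genes with at least 50 reads in the pair of libraries was -0.08 in the cytoplasm and -0.10 in the nucleus. Without *PTPRM*, a choice made after the data were seen, the sums gave -0.59 and -0.26.

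In the cytoplasm, 2 of the 7 genes were at least 2-fold lower in *KRT19* KO cells, *PTPRM* with a log2 ratio of -1.25 (-1.32 to -1.18) and *PTPRE* with -2.27 (-2.73 to -1.84), where 22.4% of 9378 genes were. None was at least 2-fold higher, where 20.6% of genes were. *PTPRK* was close to the boundary at -0.98, and *PTPRG* (-0.83) and *PTPRA* (-0.69) lay between it and 0. *PTPRF* was at -0.13 (-0.51 to 0.26), an interval that includes 0. *PTPRJ* had 0.53 (0.42 to 0.64), with its 3'UTR site as the deepest cluster: without the deepest cluster of each library its ratio was -0.08 (-0.24 to 0.08), and its intronic reads alone gave -0.39. The value of *PTPRE* rested on few reads, 229 against 53, and 116 of the 229 lay in 3'UTR clusters, where the *KRT19* KO cytoplasm had 5.

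In the nucleus, none of the 7 genes was at least 2-fold lower, where 18.2% of 9371 genes were, and none was at least 2-fold higher, where 14.4% were. *PTPRM* had -0.61 (-0.67 to -0.55), *PTPRE* -0.70, *PTPRA* -0.69, *PTPRK* -0.40 and *PTPRG* -0.34. *PTPRF* had 0.76 (0.55 to 0.98) from 293 and 457 reads, and *PTPRJ* 0.21 (0.09 to 0.32). For *PTPRJ* the nuclear 3'UTR site was part of this difference, since intronic reads alone gave -0.02.

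The lower cytoplasmic values moved with the intronic share of the library. In the cytoplasm the share of all reads that were intronic had a log2 ratio of -0.88 between *KRT19* KO and parental cells, and by intronic RPM the median gene had -0.74 and the sum of the 7 genes -1.05. In the nucleus these intronic values were -0.15 and -0.42. When intronic reads of the 7 genes were divided by all intronic reads, the log2 ratio of the sum was -0.17 (-0.21 to -0.13) in the cytoplasm and -0.26 (-0.29 to -0.22) in the nucleus. On this scale *PTPRE* was lowest in the cytoplasm (-0.52, -1.04 to -0.02) and the nucleus (-0.96), followed in the cytoplasm by *PTPRM* (-0.37, with -0.45 in the nucleus). *PTPRG* was at -0.22 and -0.17, *PTPRK* at -0.08 and -0.23, and *PTPRA* at 0.15 and -0.47. *PTPRF* (0.83 and 1.05) and *PTPRJ* (0.49 and 0.15) were above 0 in both. Thus none of the 7 was at least 2-fold lower on this scale, where 15.6% of 6399 genes were in the cytoplasm and 15.2% of 7589 in the nucleus. None was at least 2-fold higher in the cytoplasm, where 20.4% were, and *PTPRF* alone was in the nucleus, where 15.6% were.

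**Figure D5:**
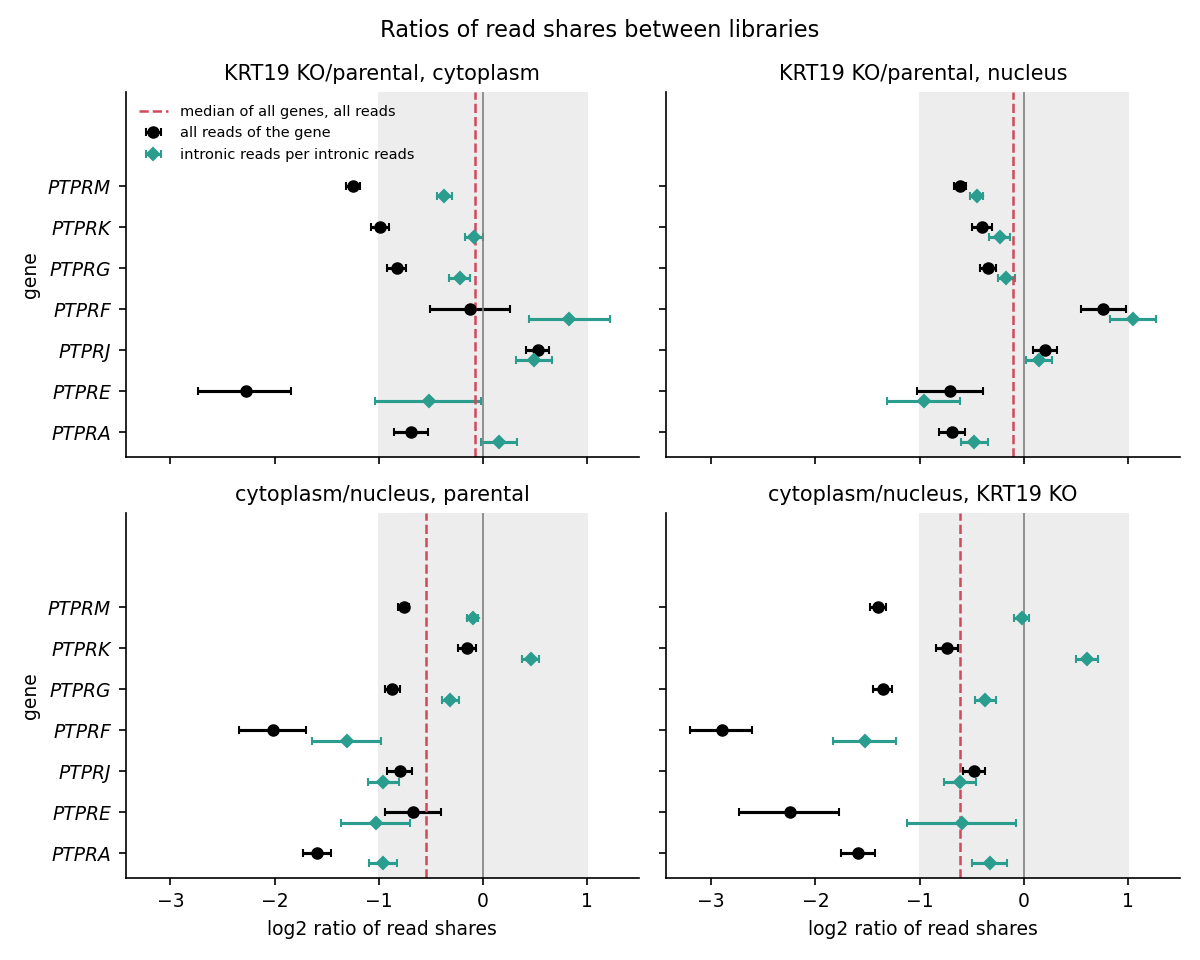
Log2 ratios of read shares of the 7 genes (horizontal axis) in 4 comparisons between libraries, for all reads of the gene (black) and for intronic reads per intronic reads (green), with 95% counting intervals; the grey band is within 2-fold and the dashed line is the median of all genes. In the cytoplasm of *KRT19* KO cells *PTPRM* and *PTPRE* lie outside the band by all reads, and by intronic reads no gene does.

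The comparison of fractions asks where HNRNPK contacted these transcripts. Summed RPM was lower in the cytoplasm than in the nucleus by a log2 ratio of -0.75 (-0.79 to -0.72) for parental cells and of -1.18 (-1.22 to -1.14) for *KRT19* KO cells, and the medians of all genes were -0.54 and -0.62. By intronic RPM the sum of the 7 genes had -0.85 and -1.48, and the median gene -1.02 and -1.67. A sum weighs genes by their reads, unlike a median. In parental cells *PTPRM* (-0.76), *PTPRK* (-0.20) and *PTPRG* (-0.97) lay above the median gene. *PTPRF* (-1.97), *PTPRJ* (-1.62), *PTPRE* (-1.69) and *PTPRA* (-1.62) lay below it. In *KRT19* KO cells *PTPRM* (-1.39) and *PTPRK* (-0.77) lay above it. Below it were *PTPRG* (-1.74), *PTPRF* (-2.90), *PTPRJ* (-1.98), *PTPRE* (-1.96) and *PTPRA* (-1.70). These comparisons share libraries with those of the genotypes and are not independent of them. In parental cells 2 of the 7 genes were at least 2-fold lower in the cytoplasm, *PTPRF* (-2.01, -2.34 to -1.69) and *PTPRA* (-1.59, -1.72 to -1.46), where 34.8% of 9590 genes were. None was at least 2-fold higher, where 18.8% were. *PTPRK* was nearest to 0 with -0.15 (-0.23 to -0.07), and *PTPRM*, *PTPRG*, *PTPRJ* and *PTPRE* lay from -0.87 to -0.67.

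In *KRT19* KO cells 5 of the 7 genes were at least 2-fold lower in the cytoplasm, where 41.2% of 9458 genes were, and none was at least 2-fold higher, where 24.4% were. *PTPRF* was again the lowest at -2.90 (-3.21 to -2.60), from 117 cytoplasmic and 457 nuclear reads. *PTPRE* had -2.24, *PTPRA* -1.60, *PTPRM* -1.40 and *PTPRG* -1.35, and *PTPRK* (-0.73) and *PTPRJ* (-0.48) stayed within 2-fold. Divided by intronic reads, the sum was at -0.19 in parental and -0.10 in *KRT19* KO cells, and *PTPRM* was at -0.10 and -0.02. *PTPRK* changed side on that scale, to 0.46 (0.38 to 0.54) in parental cells and, with *KRT19* knocked out, to 0.61 (0.50 to 0.71), and was the only one of the 7 above 0 in both. *PTPRF* stayed lowest, at -1.31 and -1.53. In parental cells *PTPRF* and *PTPRE* (-1.03) were at least 2-fold lower on this scale, where 26.7% of 7331 genes were, and in *KRT19* KO cells *PTPRF* alone was, where 25% of 6711 were. None of the 7 was at least 2-fold higher, where 8.85 and 12.7% were.

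By its profile over the 4 libraries, measured as the Euclidean distance between log2 RPM values centred on each gene's mean, *PTPRM* was nearest to *GPALPP1* (0.053), *GIT2* (0.057) and *SH3RF1* (0.096) among 5446 genes with at least 500 reads. Of the other genes of the set *PTPRG* was the nearest, at rank 158 with a distance of 0.356, followed by *PTPRA* (rank 648), *PTPRK* (718) and *PTPRE* (1028). *PTPRJ* (2470) and *PTPRF* (3164) were farthest. This likeness rests on 4 values per gene and is a description.

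T-to-C changes, the mark of a crosslink, were in 69.9, 73.7, 68.7 and 81.4% of the intronic reads of the 7 genes in the parental cytoplasm, parental nucleus, *KRT19* KO cytoplasm and *KRT19* KO nucleus, against 74.3, 73.9, 68.0 and 78.5% in all intronic clusters. Over all reads of a gene, intronic or not, *PTPRM* lay at 68.4, 71.5, 66.8 and 78.8%. On that measure *PTPRJ* was lowest, at 45.3% in the *KRT19* KO cytoplasm, where its 3'UTR site held most reads and 28.5% were intronic. That value is therefore not comparable with the intronic shares. The share of clusters resting on 1 unique read was 19.5, 30.8, 12.3 and 37.7% in the same order, higher in the nuclei than in the cytoplasm. Over all clusters it was 26.4, 37.8, 14.0 and 38.6%. Since the authors collapsed identical reads before removing molecular identifiers, 1 unique read need not mean 1 molecule.

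Related genes and partners covered a wide range of cluster numbers. The other 13 receptor-type phosphatase genes had 190 clusters in all over 11 genes, led by *PTPRQ* with 53, *PTPRS* with 41 and *PTPRN2* with 38, and *PTPRN* and *PTPRZ1* had none under those names. The 17 non-receptor phosphatases had 1470 clusters over 14 genes, led by *PTPN14* with 426, *PTPN12* with 216 and *PTPN4* with 154. Among 27 partners and substrates, 25 had 4046 clusters, led by the guanine exchange factor gene *TRIO* with 1015, the growth factor receptor gene *EGFR* with 736 and the junction plaque gene *PKP4* with 480. *TRIO* thus had more clusters than *PTPRM*, and *PTPN14* more than *PTPRJ* and *PTPRA*. By read share in the cytoplasm of *KRT19* KO against parental cells, 3 of 5 other receptor-type, 3 of 12 non-receptor and 6 of 18 partner genes with enough reads were at least 2-fold lower, and 1, 0 and 0 at least 2-fold higher, where 22.4 and 20.6% of all genes were. Their medians were -1.04, -0.50 and -0.49, beside -0.83 for the 7 genes. In the nucleus 0 of 6, 2 of 12 and 4 of 19 were at least 2-fold lower and 2, 0 and 0 higher, where 18.2 and 14.4% of all genes were. The nuclear median of the other receptor-type genes, 0.41, lay on the opposite side of 0 from that of the 7 genes (-0.40), and the non-receptor and partner genes had -0.52 and -0.25. That median of 0.41 rests on 6 genes of low depth. Their whole list had 757 parental and 835 *KRT19* KO nuclear reads, against 13920 and 9735 for the 7 genes. Its named genes were spread, with *PTPRQ* at -0.60, *PTPRS* at 0.03 and *PTPRN2* at 1.28.

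Reads of these genes were not shared with other names on the same strand. Within the annotated spans no cluster on the sense strand carried another gene name, and 6, all in *PTPRJ*, carried none. On the opposite strand lay 90 clusters, 40 in the span of *PTPRK* and 30 in that of *PTPRG*, of which 18 were assigned to the antisense gene *PTPRG-AS1*.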

How the data were processed

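4SU PAR-CLIP clusters of HNRNPK were taken from 4 libraries, 1 per condition, grouped by the genotype and treatment given per the labels. Sample titles abbreviate the knockout as HNRNPK_KO, whereas the genotype field and the methods give *KRT19*, which was used. According to the methods, the authors collapsed identical reads before removing adapters and molecular identifiers, aligned them to hg19, and called and annotated clusters with PARalyzer in PARpipe. The annotation release was not given in the sources used here. The authors deposited, for each cluster, raw read counts, with unique reads, sites of conversion and T-to-C reads counted too, without normalization. The deposited fraction of T-to-C reads, the deposited mode score and the deposited log10 conversion specificity were not used.

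From the counts were computed the number of clusters, reads per 1000000 reads in clusters (RPM), log2 ratios between libraries with exact binomial (Clopper-Pearson) intervals, and shares with Wilson intervals. Intervals cover counting error only, at depths of 3252800 to 6216226 reads per library. Whether amplified copies remained after the authors' collapsing was not tested, and such copies would not be independent molecules. A gene was called when its ratio passed 2-fold, over genes with at least 50 reads in the pair of libraries, with 0.5 reads in place of 0. Clusters overlapping by 1 nt on the same strand, chained, were merged into sites. Named were the 7 genes, *KRT19*, the 3 genes of each list with the most clusters, the site of each gene found in all 4 libraries with the highest summed RPM, the exonic sites with the most reads (3 in 3'UTRs, 1 coding, 1 in a 5'UTR), and the 3 genes nearest to *PTPRM*. The members and lists were chosen with earlier results of these data known. Overlap, merging, motif search and intervals were tested on simulated data. Alternatives covered filters on clusters, unique reads, denominators, deepest clusters, overlap and motif. Python 3.11.15, numpy 2.4.6, pandas 2.3.3, scipy 1.17.1 and matplotlib 3.10.9 were used.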

Additional observations from a re-analysis of the deposited data

Results flagged for a closer look

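*PTPRF* was flagged because its ratio between *KRT19* KO and parental cells had opposite signs in the fractions, with a log2 ratio of -0.13 in the cytoplasm and 0.76 in the nucleus. The difference between these values was not tested, since each condition was 1 library, and the cytoplasmic interval (-0.51 to 0.26) includes 0. With intronic reads divided by all intronic reads both values were above 0, at 0.83 and 1.05.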

How the results depend on the processing

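The 4 libraries had no replicates, so the spread between experiments is unknown and every interval covers counting error only. Clusters under 5 reads are not listed, so absence of a cluster does not show absence of binding. No paired analysis was possible because the replicate numbers in the labels belong to RNA-seq samples that were not analysed here. The cause of the movements below was not tested, except that filters leave fewer clusters by construction.

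With clusters of at least 10 reads, the 7 genes had 417, 510, 252 and 384 clusters in the parental cytoplasm, parental nucleus, *KRT19* KO cytoplasm and *KRT19* KO nucleus, or 0.566 per kb in place of 0.980, and with at least 2 conversion locations 366, 248, 310 and 150. With at least 2 unique reads the *KRT19* KO nucleus had 398. The intronic share weighted by reads was 92.3% in the parental cytoplasm, 78.9% in the *KRT19* KO cytoplasm and 96.8% in the *KRT19* KO nucleus, where at least 2 conversion locations gave 96.0%. The share of clusters overlapping another library was 51.8% for the parental cytoplasm and 65.9% for the *KRT19* KO cytoplasm with at least 10 reads, 54.8, 49.4 and 62.7% in the parental nucleus, *KRT19* KO cytoplasm and *KRT19* KO nucleus with at least 2 conversion locations, and 46.5 and 48.7% for the parental nucleus and *KRT19* KO nucleus with at least 2 unique reads. An overlap of 50% of the shorter cluster moved this share by less than its interval.

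All summed log2 ratios stayed below 0 under each alternative run. For *KRT19* KO against parental cytoplasm, -0.82 became -0.90 with at least 10 reads, -0.90 by unique reads, -0.17 by intronic reads per intronic reads, -1.01 without each gene's deepest cluster and -0.59 without *PTPRM*. For the nuclei, -0.39 became -0.48 with at least 2 unique reads, -0.47 by unique reads, -0.26 by intronic reads, -0.35 with a denominator without mitochondrial clusters and the deepest cluster, and -0.26 without *PTPRM*. For cytoplasm against nucleus in parental cells, -0.75 became -0.85, -0.84, -0.83, -0.19, -0.67 and -0.81 with at least 10 reads, at least 2 unique reads, unique reads, intronic reads, the smaller denominator and without the deepest clusters. In *KRT19* KO cells -1.18 became -1.34 with at least 10 reads, -1.26 by unique reads, -0.10 by intronic reads, -1.14 with the smaller denominator, -1.41 without the deepest clusters and -1.08 without *PTPRM*. Leaving out *PTPRM* was chosen after the data were seen.

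By intronic reads, the genes at least 2-fold lower numbered 0 in place of 2 in *KRT19* KO against parental cytoplasm and 1 in place of 5 in cytoplasm against nucleus of *KRT19* KO cells. In the nuclei 1 gene, *PTPRF*, was at least 2-fold higher in *KRT19* KO cells by unique reads and 1 by intronic reads, in place of 0. Of 166 values of single genes under these alternatives, 101 kept their sign and moved by less than their interval, 58 kept it and moved by more, and 7 changed sign: *PTPRF*, whose interval included 0, in the cytoplasm of *KRT19* KO against parental cells to 0.12 with at least 10 reads and 0.83 by intronic reads, *PTPRJ* in that comparison to -0.081 without its deepest clusters and in the nuclei to -0.029 by unique reads, and by intronic reads *PTPRA* in the same cytoplasmic comparison to 0.15 and *PTPRK* in cytoplasm against nucleus to 0.46 (parental) and 0.61 (*KRT19* KO). The motif share of 32.6% became 43.1% for CCC, 19.4% for T[T/C]CCC and 36.7% in clusters of at least 10 reads. With genes of at least 200 reads, 8.56% of genes in place of 14.4% were at least 2-fold higher between the nuclei.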
